A study of Sus scrofa with 30 samples.

Results

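miR-146a and miR-146b are a pair of microRNAs (miRNAs) from separate precursors, and they were followed here in the pig endometrium. Of the 873 annotated sequences in the study's supplementary list, the 10 whose name has the root mir-146a or mir-146b were taken, 6 of miR-146a and 4 of miR-146b. They comprised the canonical (reference) sequence of each miRNA and its isomiRs, variants of the same miRNA with bases added (ADD) or deleted (DEL) at an end. Members were chosen by name, but from a list that had been selected on read counts in these same libraries, so the levels that put a sequence on it are a description and carry no test.

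Small RNA was sequenced from 30 endometrial samples, 1 library per animal, with 16 pregnant (P) and 14 cyclic (C) gilts. The groups were day 12, 16 and 20 of pregnancy (PD12, 5 animals; PD16, 5; PD20, 6) and the same days of the estrous cycle (CD12, 4; CD16, 5; CD20, 5). All animals were Hampshire x Duroc gilts of 7 to 8 months from 1 herd, and per the labels insemination was done 12 and 24 h after the third estrus was detected. Tissue was taken post mortem and snap-frozen, and a gilt counted as pregnant when at least 4 conceptuses were found. Conceptuses were flushed out of the uterus up to D16. On pregnant D20 the trophoblast was dissected off and, per the paper, the endometrium was taken at implantation sites. Pregnant D20 tissue was thus handled differently from that of the other days, and handling and sampled site cannot be told apart from this group. A library held between 2029729 and 6402731 reads (median 3111079), of which 75.3% to 87.2% lay on the 873 listed sequences. Whole tissue was used, so a lower level cannot be told apart from fewer cells of a type.

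miRNAs of the miR-146 family share a seed, the bases near the 5' end that pair with target mRNAs. Transcription of miR-146a is induced by NF-kappaB downstream of Toll-like and interleukin-1 receptors, and the miRNA represses the adaptors TRAF6 and IRAK1 of the same pathway, which dampens innate immune signalling. The porcine endometrium is invaded by immune cells and exposed to conceptus cytokines around implantation. An isomiR with a changed 3' end keeps its seed, whereas a changed 5' end shifts the seed.

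The 3 sequences shown first have the seed (bases 2 to 8) in capitals, since the seed is what the forms share or not. They come from the study's supplementary sequence list and were matched exactly to the deposited reads.
miR-146a-5p, canonical: tGAGAACTgaattccatgggtt
miR-146b, canonical: tGAGAACTgaattccataggc
miR-146a with T added at the 5' end and T deleted at the 3' end: tTGAGAACtgaattccatgggt
The first 17 bases of both canonical sequences were identical, and they differed by G18A and T21C, counted from the 5' end with the base of miR-146a first. Seed GAGAACT was common to 9 of the 10 forms, and the shifted form had the seed TGAGAAC. The next 6 sequences are the 3' extended forms, with the added bases in capitals, since these ends are compared with the total level.
miR-146a 3'ADD A: tgagaactgaattccatgggttA
miR-146a 3'ADD G: tgagaactgaattccatgggttG
miR-146a 3'ADD AT: tgagaactgaattccatgggttAT
miR-146b 3'ADD T: tgagaactgaattccataggcT
miR-146b 3'ADD TG: tgagaactgaattccataggcTG
miR-146b 3'ADD TGT: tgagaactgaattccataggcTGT
The 3 miR-146b forms are the same sequence read 1, 2 and 3 bases further at its 3' end. The remaining member, miR-146a 3'DEL T, is the canonical miR-146a-5p without its last base. The 3'ADD A and 3'ADD AT forms of miR-146a are named in the list only after mouse and rat precursors.

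The list kept a sequence with at least 10 reads in 4 libraries of at least 1 group (3 libraries for CD12), though 19 of the 873 met this in no group in the deposited counts. Of the 10 members, 6 passed in all 6 groups: miR-146a canonical, 3'DEL T and 3'ADD A, and miR-146b 3'ADD T, 3'ADD TG and 3'ADD TGT. The 3'ADD G and 3'ADD AT forms of miR-146a passed through CD20 only, the 5' shifted form through CD12 and CD20, and canonical miR-146b in every group other than PD16 and CD12. Just inside the filter, miR-146a 3'ADD AT had at least 10 reads in 4 of 5 CD20 libraries. Just outside it, the deciding library had 9 reads for that form in CD12 and 9 reads for the 5' shifted form in PD20. A form that passed only where it is high had to differ from other groups, so no count of called members below includes these 4. The ratios and totals do sum their reads. The ratios are therefore given as a description, and the called rises of the totals from D16 to D20 are also given with every deposited form counted.

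Over all libraries miR-146a was mostly canonical and miR-146b mostly extended. Of 13066 listed miR-146a reads, 74.9% were canonical, 13.6% 3'DEL T, 5.63% 3'ADD A, 2.58% the 5' shifted form, 1.71% 3'ADD G and 1.59% 3'ADD AT. Of 17231 listed miR-146b reads, 56.1% were 3'ADD TGT, 22.1% 3'ADD TG, 15.8% 3'ADD T and only 5.87% canonical. The ratio of 3' extended to canonical reads had a geometric mean of 0.122 for miR-146a and 19.8 for miR-146b. Among the 87 miRNAs of the list with both kinds of form this was place 52 and place 3 from the highest, and 20 of the 87 lay above 1. Both miRNAs were of modest abundance, at 0.0393% of the listed reads together. When all listed forms of each miRNA were summed, miR-146b ranked 81 and miR-146a 86 of 245 miRNAs.

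**Figure D1:**
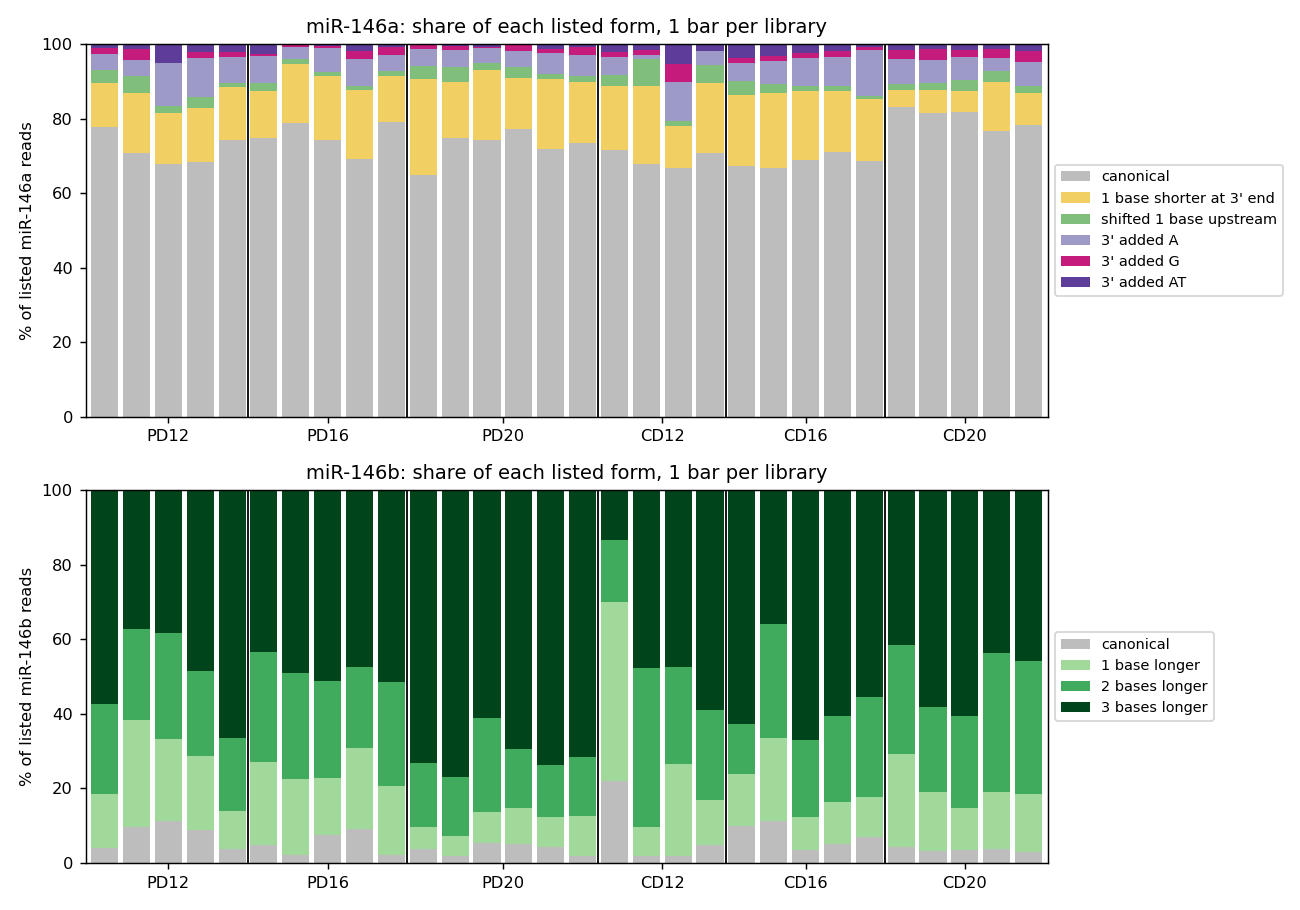
Percent of the listed reads of miR-146a (top) and miR-146b (bottom) that lay on each form in each of the 30 libraries, stacked to 100 and ordered by group. Canonical reads dominate miR-146a in every library. The longest form (3'ADD TGT) is the largest segment of miR-146b in every library other than CD12 replicate 1, and it took between 61.2% and 76.9% in PD20.

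Some libraries stood apart before any group was compared. CD12 replicate 1 had 707 normalized reads of total miR-146b, against 85.5, 78.8 and 108 in the other CD12 libraries (normalized reads are counts per 1e6 listed reads with trimmed mean of M-values scaling of the library sizes, TMM). Among the 245 summed miRNAs only miR-203, a miRNA of keratinizing and other epithelia, was further above the other CD12 libraries, with 3498 against 375 to 512. In that library canonical miR-146b reached 141 normalized reads and 3'ADD T 312, whereas 3'ADD TGT was 86.6, so its extra miR-146b reads lay on the shorter forms. Secondly, PD20 replicate 3 and CD16 replicate 3 had almost no reads on forms that end in C where the listed form ends in T: 0.672% and 0.276% over all such listed sequences, against 8.07% to 16.97% (median 12.0%) in the other 28 libraries. The called changes of miR-146 are also given without those of these 3 libraries that they include.

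In pregnancy, miR-146b was lowest on D16 and highest on D20. Total miR-146b was 232, 189.8, 119, 203 and 254 normalized reads in the 5 PD12 libraries and 152, 88.9, 59.0, 65.6 and 112 in PD16. In PD20 the lowest library had 121, the median was 451 and the highest 654. All PD20 libraries but replicate 6 (121) lay above every PD16 library, and the means were 199.6 ± 51.5 (PD12; SD, n = 5), 95.4 ± 37.7 (PD16; n = 5) and 438.8 ± 188 (PD20; n = 6). Total miR-146b rose 4.69-fold from PD16 to PD20 (log2 fold change 2.23, SE 0.364, adjusted p = 0.00161, edgeR quasi-likelihood F-test), where 1.63% of the 245 miRNAs were called. Calls needed a log2 fold change over 1 in either direction together with an adjusted p under 0.05 (Benjamini-Hochberg, over all 873 sequences or all 245 miRNAs). With the 2 libraries of few terminal C forms left out the change was 2.26 (adjusted p = 0.00330), and it stayed called without any 1 library (1.95 to 2.44). Against PD12, with D16 and D20 tested jointly (adjusted p = 0.00426), it was lower on D16 (log2 fold change -1.20, SE 0.362) and higher on D20 (1.03, SE 0.347), where 1.22% and 3.27% of the miRNAs were called. Without PD20 replicate 3 these were -1.09 and 1.17 (joint adjusted p = 0.00539). As single contrasts neither passed (adjusted p = 0.141 and 0.103), and without PD16 replicate 3 or PD20 replicate 4 the first was -0.96 or -0.98, while the second fell to between 0.91 and 0.97 without PD12 replicate 3, PD20 replicate 2 or PD20 replicate 4.

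Among the listed miR-146b sequences, the longest form was the one called. miR-146b 3'ADD TGT had 133, 62.2, 53.1, 101 and 175 normalized reads in PD12 and 63.7, 42.5, 31.5, 39.1 and 58.5 in PD16. In PD20 its lowest value was 94.0, the median 299.5 and the highest 465. No PD20 library fell within the range of PD16, which was the case, with PD20 higher, for 1.15% of the 873 sequences. The form rose 5.93-fold from PD16 to PD20 (log2 fold change 2.57, SE 0.419, adjusted p = 0.00510), in a comparison with 0.573% of sequences called. From PD12 it was -1.07 (SE 0.410) on D16 and 1.50 (SE 0.399) on D20 (joint adjusted p = 0.00929), with 0.229% and 0.802% of sequences called, and the single contrasts gave adjusted p = 0.421 and 0.0497. DESeq2 did not call the D16 difference (-1.14, adjusted p = 0.159). Without PD12 replicate 5 the D16 difference was -0.84. Without any 1 library, the rise from PD16 to PD20 lay between 2.40 and 2.81, and without the 2 libraries of few terminal C forms it was 2.67 (adjusted p = 0.00502). The changes from PD12 were then -1.07 and 1.60 (joint adjusted p = 0.0105).

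The shorter forms also had lower means in PD16 than in PD12, 26.7 ± 11.1 against 47.1 ± 6.94 normalized reads for 3'ADD TG (log2 fold change -0.73, SE 0.374, joint adjusted p = 0.139) and 19.6 ± 8.28 against 36.1 ± 8.35 for 3'ADD T (-0.80, SE 0.382, joint adjusted p = 0.380). Neither was called there or between PD16 and PD20. For PD20 vs PD16 the log2 fold change was 1.29 (SE 0.366, adjusted p = 0.118) for 3'ADD TG, which had 16.0 to 43.2 normalized reads in PD16 and 20.8 to 95.8 in PD20. It was 0.58 (SE 0.368, adjusted p = 0.473) for 3'ADD T, with 9.29 to 32.2 in PD16 and 13.96 to 56.4 in PD20. Canonical miR-146b, which did not pass the list's filter in PD16, had 1.77 to 7.45 and 2.38 to 29.5 normalized reads. miR-146a was not called between these groups: its total was 147 ± 55.6 in PD16 and 217 ± 101 in PD20 (log2 fold change 0.60, SE 0.360, adjusted p = 0.428), and its canonical form 114 ± 39.5 and 149 ± 73.7 (0.31, SE 0.389, adjusted p = 0.756). miR-146b made up 31.5% to 44.6% of the reads of both miRNAs in PD16 and 40.7% to 79.2% in PD20.

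**Figure D2:**
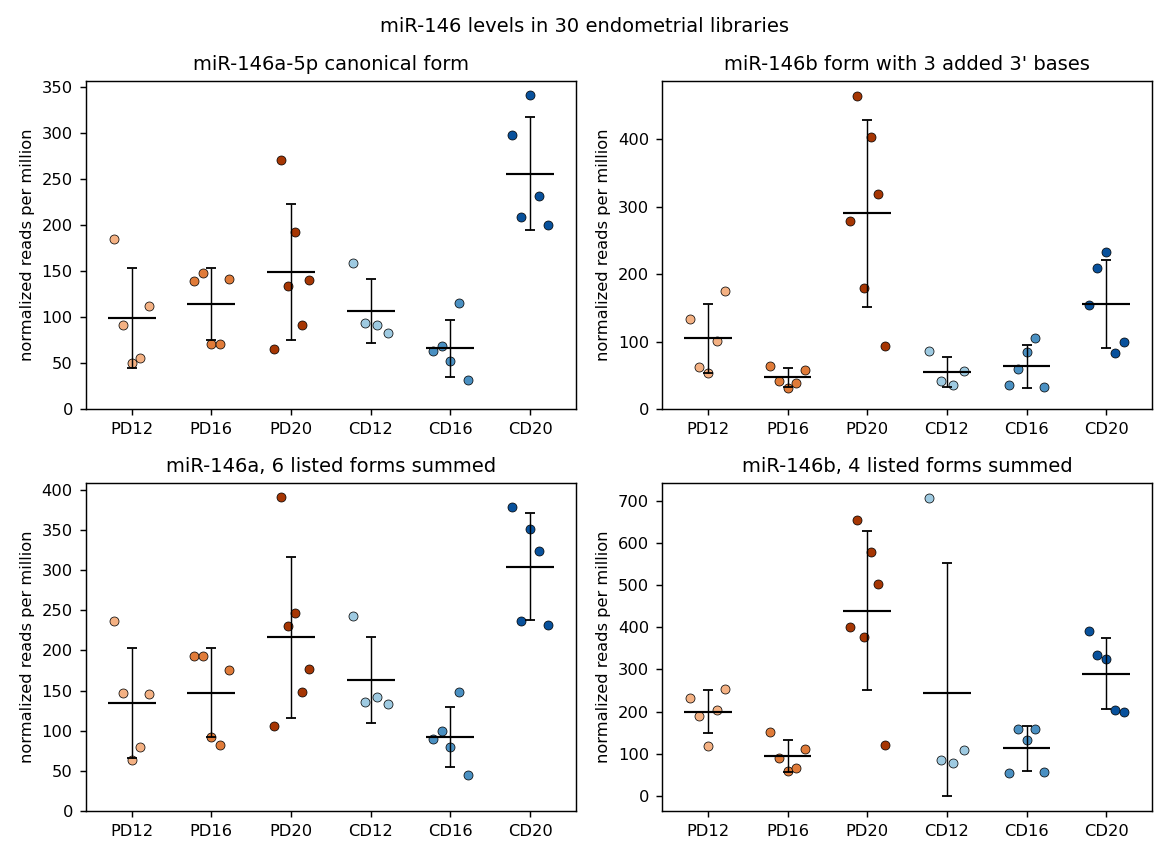
Normalized reads of total miR-146a, canonical miR-146a, total miR-146b and miR-146b 3'ADD TGT in every library, by group, with the mean (wide bar) and SD (narrow bars, cut at 0). The 6 PD20 libraries of miR-146b 3'ADD TGT (94.0 to 465) lie above all PD16 libraries, the 5 CD20 libraries of canonical miR-146a (199 to 341) lie above all CD12 and CD16 libraries, and CD12 replicate 1 stands alone for total miR-146b (707).

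In the cycle the quasi-likelihood test called miR-146a, with its highest level on D20. Canonical miR-146a-5p had 159, 93.8, 90.9 and 82.9 normalized reads in CD12, then 63.2, 69.1, 51.9, 115 and 31.5 in CD16. In CD20 it had 298, 209, 341, 232 and 199. Every CD20 library lay above every CD12 and CD16 library, as was the case for 2.86% and 3.44% of the 873 sequences. It rose 3.69-fold from CD16 (66.2 ± 31.02) to CD20 (256 ± 61.1; n = 5 each), a log2 fold change of 1.88 (SE 0.387, adjusted p = 0.0251), with 0.458% of sequences called. Without CD16 replicate 1, 2, 3 or 5 or CD20 replicate 2 the adjusted p was 0.0689, 0.104, 0.0545, 0.0780 or 0.0577, so the call held in 9 of 14 omissions, with a change of 1.75 to 2.15. The omission of CD16 replicate 3 is also that of the cyclic library with few terminal C forms, and the change was then 1.83. Among all deposited sequences of at least 10 reads neither this change nor that from CD12 to CD20 was called (adjusted p = 0.337 and 0.191). Against CD12 the change to D20 was 1.25 (SE 0.409, joint adjusted p = 0.0446, with 0.458% of sequences called; single contrast 0.180; DESeq2 0.0526), and that to D16 was -0.63 (SE 0.397; 0.115% of sequences called), under the fold threshold. Without CD12 replicate 1 the change to D20 was 1.53 (adjusted p = 0.0305), and without CD16 replicate 3 it was 1.25 (adjusted p = 0.0492). The call was lost without CD12 replicate 2 or 4, CD16 replicate 1, 2 or 5, or CD20 replicate 1, 2 or 3 (1.13 to 1.27, adjusted p = 0.0659 to 0.0979), and so held in 6 of 14 omissions.

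Total miR-146a gave the same order of groups. It was 243, 135, 142 and 133 normalized reads in CD12, 89.996, 99.4, 79.6, 148 and 45.3 in CD16, and 378, 237, 352, 324 and 231 in CD20. CD20 and CD16 did not overlap, whereas CD12 replicate 1 lay within the range of CD20. The rise from CD16 to CD20 was 2.82-fold (log2 fold change 1.50, SE 0.359, adjusted p = 0.0212; 5.71% of miRNAs called). Without CD16 replicate 5 it was 1.32 (adjusted p = 0.0683), and with the 2 libraries of few terminal C forms left out 1.43 (adjusted p = 0.0298). From CD12 to CD20 it was 0.86 (joint adjusted p = 0.0440), under the fold threshold. Without CD12 replicate 1 it became 1.12 (adjusted p = 0.0272), and 2.86% of miRNAs were called in that comparison with all libraries. Total miR-146a sums 3'ADD G and 3'ADD AT, listed through CD20 only, and the 5' shifted form, listed through CD12 and CD20. That listing favours a higher total in CD20, though these forms held only 1.71%, 1.59% and 2.58% of the listed miR-146a reads. With every deposited form counted, the rise from CD16 to CD20 was 1.35 (adjusted p = 0.0403).

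Total miR-146b was higher in every CD20 library than in any CD16 library, but missed the test. Its levels were 54.0, 159.7, 133, 159.7 and 57.5 normalized reads in CD16 and 390.0, 333, 326, 204 and 198 in CD20 (log2 fold change 1.14, SE 0.545, adjusted p = 0.172). Such a separation, with CD20 higher, occurred for 4.49% of the 245 miRNAs. Its 3'ADD TG form also separated, as did 3.44% of sequences (7.53 to 50.7 against 70.7 to 108; 1.59, SE 0.512, adjusted p = 0.0969), while 3'ADD TGT overlapped (32.3 to 106 against 83.0 to 233; 1.22, SE 0.428, adjusted p = 0.111). DESeq2 called the latter (1.26, adjusted p = 0.0398). For CD20 vs CD12, 3'ADD TGT was called by the likelihood ratio test (1.49, adjusted p = 0.0339), DESeq2 (adjusted p = 0.0451) and 1 fit of all 30 libraries (1.51, adjusted p = 0.0342), though not by the quasi-likelihood test. With CD12 replicate 1 in the fit, total miR-146b differed by -0.94 (SE 0.569) from CD12 to CD16 (2.04% of miRNAs called) and by 0.20 (SE 0.572) from CD12 to CD20. Without it these were 0.51 and 1.65, and the latter was then called (adjusted p = 0.0404).

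**Figure D3:**
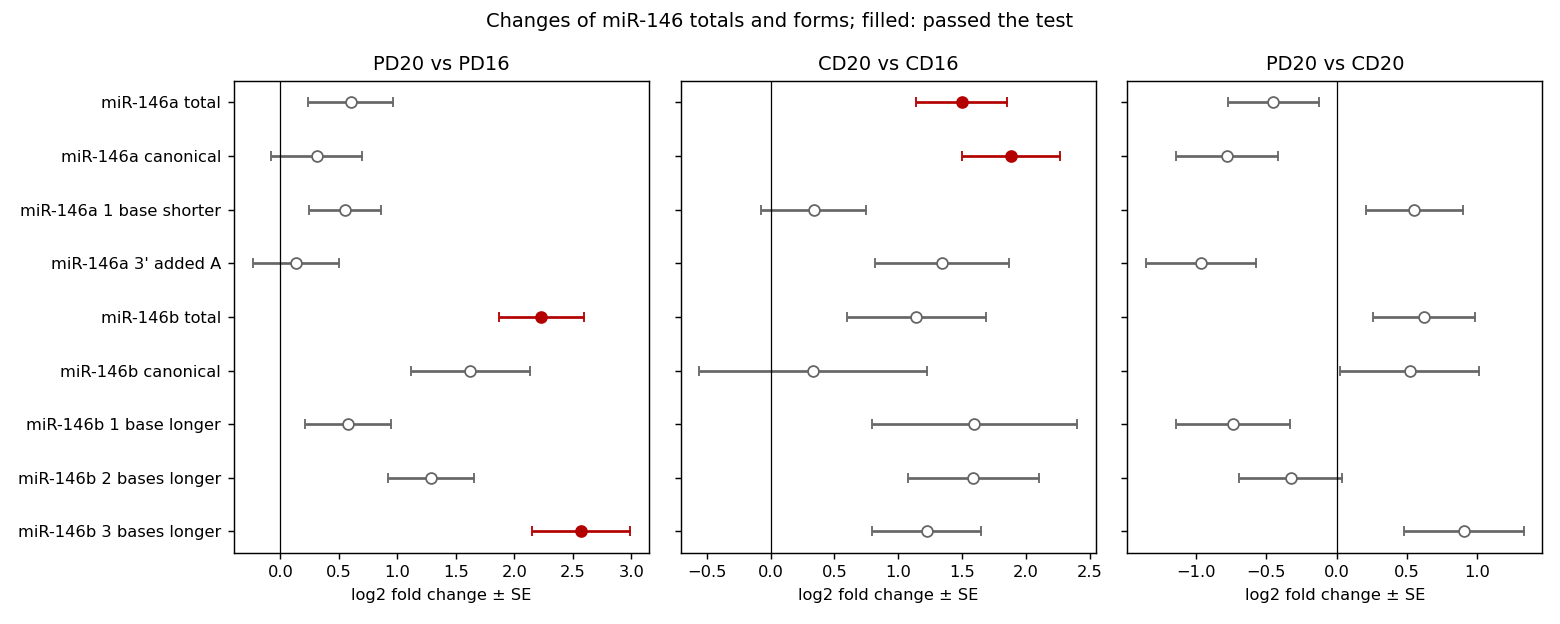
Log2 fold change (points) with its SE (bars) for the totals and main forms of miR-146a and miR-146b, in PD20 vs PD16, CD20 vs CD16 and PD20 vs CD20. Filled points passed the thresholds. Canonical miR-146b is drawn too, although it did not pass the list's filter in PD16, and it carries no test. Total miR-146b and its 3'ADD TGT form lie well above 0 for PD20 vs PD16 (2.23 and 2.57), and total and canonical miR-146a for CD20 vs CD16 (1.50 and 1.88).

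Pregnant and cyclic animals of the same day were not told apart by any of the 6 members that passed everywhere, nor by the totals. On D12 and D16 the quasi-likelihood test called 0 of the 873 sequences at all, with 53 and 95 at an unadjusted p under 0.05, and DESeq2 called 0 and 7. On D20 it called 1.49% of sequences and 6.53% of summed miRNAs. For PD20 vs CD20 the log2 fold change was -0.78 (SE 0.363, adjusted p = 0.167) for canonical miR-146a, -0.45 (SE 0.323, adjusted p = 0.352) for total miR-146a, 0.91 (SE 0.426, adjusted p = 0.171) for miR-146b 3'ADD TGT and 0.62 (SE 0.363, adjusted p = 0.269) for total miR-146b. miR-146a was thus lower and miR-146b higher on average in pregnant animals of D20, with overlapping ranges.

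The change from D16 to D20 was also compared between pregnancy and the cycle in 1 model. The difference of the changes (P minus C) was -1.57 (SE 0.541, adjusted p = 0.103) for canonical miR-146a and 1.33 (SE 0.580, adjusted p = 0.201) for miR-146b 3'ADD TGT. For the totals it was -1.16 (SE 0.509, adjusted p = 0.162) for miR-146a and 0.83 (SE 0.671, adjusted p = 0.447) for miR-146b. None was called, in a comparison that called 2.41% of sequences and 4.9% of miRNAs. The rise of miR-146b in pregnancy and that of miR-146a in the cycle were therefore not shown to differ between reproductive states.

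The ratio of 3' extended to canonical reads is described without a test, since canonical miR-146b and 2 of the extended forms of miR-146a were listed through some groups only. For miR-146b the log2 change of the ratio from PD16 to PD20 was 0.43 (SE 0.536; 95% interval -0.62 to 1.49), beside a change of 2.23 in its total. The ratio was 18.8, 41.3, 11.6, 9.83 and 42.6 in PD16, and in PD20 17.9 at the lowest, 23.5 at the median and 51.5 at the highest. These ranges overlapped, with 2 of the 5 PD16 libraries below all of PD20 and 2 of the 6 PD20 libraries above all of PD16. From PD12 to PD20 the ratio differed by 1.06 (SE 0.536; 95% interval 0.00 to 2.11), and from CD16 to CD20 by 1.01 (SE 0.560; -0.09 to 2.11). Between PD20 and CD20 it differed by 0.04 (-1.01 to 1.09). With every deposited extended form in place of the listed ones, the change from PD16 to PD20 was 0.53 (SE 0.531). The wide intervals do not show that the ratios were alike.

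For miR-146a the ratio was lower on average in CD20 than in CD16, where its total rose. It was 0.151, 0.163, 0.167, 0.162 and 0.208 in CD16 and 0.129, 0.131, 0.119, 0.0948 and 0.144 in CD20. All CD20 libraries lay below all CD16 libraries, as for 5.75% of the 87 ratios, with a difference of -0.47 (SE 0.340). The difference was -0.73 (SE 0.326) from PD12 to PD20 and -0.70 (SE 0.340) between PD16 and CD16. With every deposited extended form these 3 were -0.49 (SE 0.252), -0.60 (SE 0.241) and -0.68 (SE 0.252). Neither miR-146 ratio was called by limma in the 9 comparisons, and nothing is read from that here. Over all ratios limma called 3.45% of the ratios for PD20 vs PD12, 2.3% for CD20 vs CD12 and 1.15% each for PD16 vs CD16 and PD20 vs CD20.

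**Figure D4:**
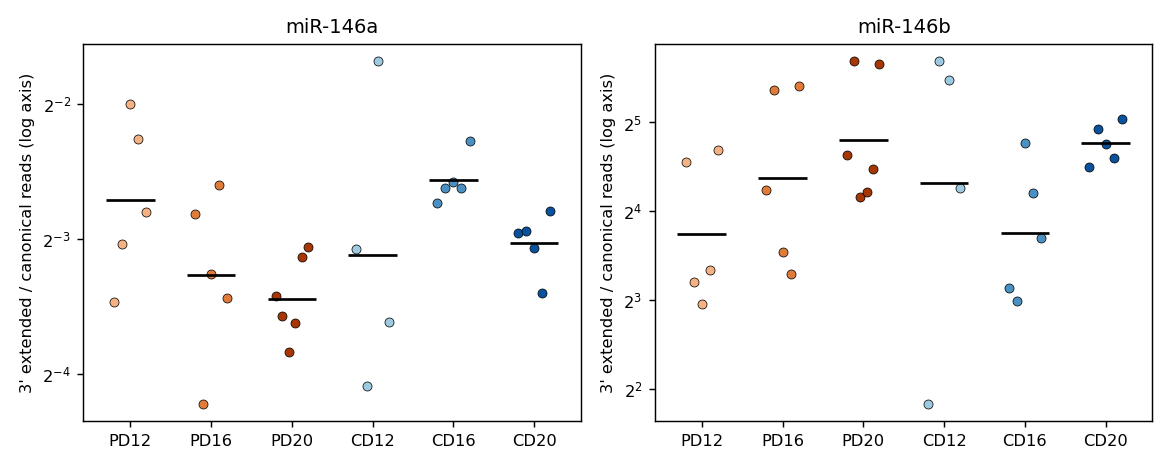
Ratio of 3' extended to canonical reads of miR-146a (left) and miR-146b (right) in each library on a log axis (base 2), by group, with the geometric mean as a bar. Points of miR-146a lie far below 1 and those of miR-146b above 3 in every library, and the lowest miR-146b ratio is that of CD12 replicate 1 (3.57).

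Within miR-146b the longest tail had its highest mean share in PD20, with an overlap with other groups. The 3'ADD TGT form held 43.5%, 49.0%, 51.3%, 47.5% and 51.5% of listed miR-146b reads in PD16 and 41.7%, 58.3%, 60.5%, 43.7% and 45.9% in CD20. In PD20 it held 61.2% at the lowest, 72.5% at the median and 76.9% at the highest (71.0% ± 5.41, n = 6). PD20 overlapped with neither of these groups, but it did with PD12 (up to 66.6%) and CD16 (up to 67.0%). Without PD20 replicate 3, the lowest, its range was 69.4% to 76.9%. Such a separation, with PD20 higher, occurred for 0.756% of the 794 forms of miRNAs with at least 2 listed forms against PD16, and for 2.14% against CD20. The shortest tail, 3'ADD T, held 15.1% to 22.02% in PD16, 11.1% to 25.1% in CD20 and 5.38% to 10.6% in PD20, with PD20 again below both (PD20 lower for 0.378% and 1.39% of forms). When the share of each form was tested within its miRNA (edgeR diffSpliceDGE, chosen after the data were seen), 3'ADD T was lower in PD20 than in PD16 by -0.97 on the log2 scale relative to the other forms (unadjusted p = 0.00138, adjusted p = 0.366; without both libraries of few terminal C forms -0.99, adjusted p = 0.846). Its adjusted p was 0.253 against PD12 and 0.348 against CD20. No miR-146 form was called, and the test called 0.252% of the 794 forms for PD20 vs CD20, 0.126% for PD20 vs PD12 and none in the other comparisons.

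Within miR-146a the share of the shortened form separated groups, though no test of it was passed. The 3'DEL T form took 19.1%, 20.0%, 18.8%, 16.5% and 16.5% of listed miR-146a reads in CD16, but 4.75%, 6.19%, 5.70%, 12.9% and 8.41% in CD20. In PD20 it took between 13.8% and 25.7%. CD20 lay below both groups (CD20 lower than CD16 for 0.882% of forms, PD20 higher than CD20 for 2.14%). The canonical share was 76.8% to 83.0% in CD20 and 66.8% to 70.9% in CD16, a separation found with CD20 higher for 1.89% of forms, and the level of 3'DEL T itself was not called (17.5 ± 7.22 and 23.4 ± 9.27 normalized reads; log2 fold change 0.34, SE 0.410, adjusted p = 0.668). The test of the share gave adjusted p = 0.573 for CD20 vs CD16 (-0.91) and 0.348 for PD20 vs CD20 (0.84). Without both libraries of few terminal C forms these were 0.535 (-0.91) and 0.570 (0.82), and the groups still did not overlap.

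The listed forms are a part of what the libraries held. Among all deposited sequences, 149 forms of miR-146a and 143 of miR-146b were found with 17601 and 22017 reads, of which 25.8% and 21.7% lay outside the list. The most abundant of these was a miR-146b form that ends in C in place of the last T of 3'ADD TGT, shown with its added bases in capitals because 2 libraries lacked it.
miR-146b 3'ADD TGC: tgagaactgaattccataggcTGC
It had 1669 reads in 28 libraries, and the 2 with none were PD20 replicate 3 and CD16 replicate 3. Its level was 7.14 ± 2.74 normalized reads in PD16 and 57.8 ± 48.6 in PD20 (0 to 144.9). With every deposited form counted, total miR-146b changed by 2.32 from PD16 to PD20 (adjusted p = 0.000892), and total miR-146a by 1.35 from CD16 to CD20 (adjusted p = 0.0403).

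Other miRNAs tied to Toll-like receptor and NF-kappaB signalling were set beside miR-146. Of 10 such miRNAs, 7 were listed, with 9 entries, and miR-21 was by far the most abundant. In the 3 comparisons within pregnancy, none of the 9 entries was called, where 1.22% (PD16 vs PD12), 3.27% (PD20 vs PD12) and 1.63% (PD20 vs PD16) of all miRNAs were. None was called between pregnant and cyclic animals of the same day either (0%, 0% and 6.53% of all miRNAs on D12, D16 and D20). For so few entries a lack of calls is near these shares, and nothing is read from it. Within the cycle the entries past the thresholds were miR-155 and miR-132, 1 of 9 for CD16 vs CD12 (2.04% of all miRNAs called), 2 for CD20 vs CD12 (2.86%) and 1 for CD20 vs CD16 (5.71%). The list held miR-132 through CD20 only and miR-155 through PD20 and CD20 only, so both are described without a test. miR-155, which is induced with miR-146a in activated macrophages and was listed here only as isomiRs without the canonical form, had 4.37, 3.90, 7.46, 2.96 and 2.36 normalized reads in CD16 and 33.5, 25.4, 7.86, 17.3 and 16.4 in CD20. All CD20 libraries lay above CD16, as for 4.49% of summed miRNAs. The listing of miR-155 through PD20 and CD20 favours such a separation, so nothing is read from it. miR-132 had 3.19 to 18.6 normalized reads in CD20 and 0 to 1.50 in CD12. The median log2 fold change of the 9 entries for CD20 vs CD16 was -0.41, against -0.07 over all 245 miRNAs. It includes miR-155 and miR-132 and is likewise a description.

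Among leukocyte miRNAs other than miR-155, most entries had higher means in CD20 than in CD16, the comparison in which miR-146a rose. Of 5 listed for leukocytes 4 were found (5 entries, with miR-342 the most abundant), and miR-223, the main miRNA of granulocytes, was not on the list. Their median log2 fold change for CD20 vs CD16 was 1.22, against -0.07 over all miRNAs. This median includes miR-155, listed through PD20 and CD20 only, so it is a description and carries no test. Beside miR-155, described above, 1 of the other 4 entries was called, miR-142-3p, a miRNA of blood cells (2.30, SE 0.667, adjusted p = 0.0477; 5.71% of all miRNAs called). miR-150, of lymphocytes, was 15.5 ± 8.48 in CD16 and 43.3 ± 20.4 in CD20 (1.22, SE 0.426, adjusted p = 0.0842), and the isomiRs of miR-142 were 24.8 ± 15.3 and 42.99 ± 21.4 (0.55, adjusted p = 0.505). miR-142-3p passed the list's filter in PD12, PD20, CD12 and CD20 but not in CD16. miR-342 was 147 ± 107 in CD16 and 115 ± 67.0 in CD20 (-0.63, SE 0.503, adjusted p = 0.463). miR-142-3p had 1.80, 2.48, 4.48, 2.11 and 0.394 normalized reads in CD16 and 38.7, 12.7, 5.11, 8.37 and 3.46 in CD20, with CD20 replicate 1 the highest. The summed leukocyte list, mostly miR-342, overlapped, at 137, 339.7, 281, 139.8 and 70.1 in CD16 and 451, 212, 176, 187 and 149 in CD20. Without CD20 replicate 1, total miR-146a changed by 1.63 (adjusted p = 0.0167) and canonical miR-146a by 1.84 (adjusted p = 0.0482) from CD16. miR-126, of endothelium, was higher in sum in all CD20 libraries (3871 to 5321) than in CD16 (2259 to 3708), as for 4.49% of summed miRNAs, and its minor arm miR-126-5p was called (1.61, SE 0.456, adjusted p = 0.0449) with overlapping ranges. The part of leukocytes or vessels in the miR-146a result was not tested.

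**Figure D5:**
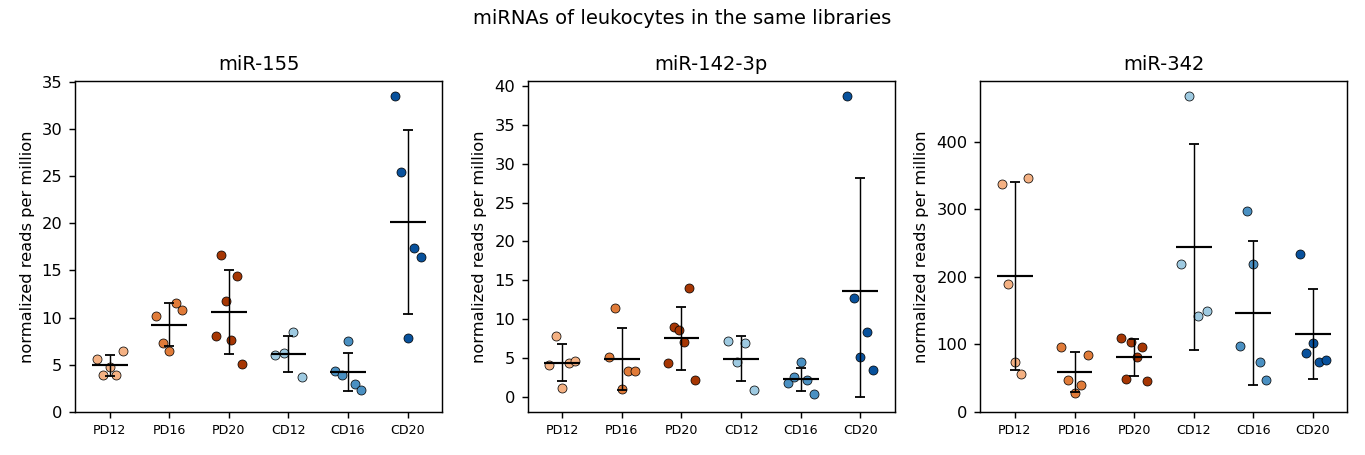
Normalized reads of the leukocyte miRNAs miR-155, miR-142-3p and miR-342 in every library, by group, with the mean (wide bar) and SD (narrow bars, cut at 0). miR-155 is above CD16 in all 5 CD20 libraries (7.86 to 33.5), miR-142-3p is highest in CD20 replicate 1 (38.7), and miR-342 is highest in a CD12 library.

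In pregnancy muscle miRNAs had higher sums in some PD20 libraries, though none was called. Both smooth muscle miRNAs were found (miR-143 and miR-145, 5 entries, miR-143-3p the most abundant), and their sum was 33011 to 61813 normalized reads in PD16 and 42062, 75439 and 415260 (lowest, median, highest) in PD20. Their median log2 fold change was 1.40, against 0.02 over all miRNAs, but none was called (1.63% of all miRNAs called). Of 5 muscle miRNAs 3 were found, with miR-133a and miR-133b not on the list, and their sum, mostly miR-1, was 1124 to 3189 in PD16 and 1408 to 42155 in PD20. PD20 replicate 1 was the highest library for both lists, and without it total miR-146b still changed by 2.22 from PD16 to PD20 (adjusted p = 0.00455) and its 3'ADD TGT form by 2.59 (adjusted p = 0.00878). Of the 5 leukocyte entries none was called between PD16 and PD20 (1.63% of all miRNAs called), with a median log2 fold change of 0.58 against 0.02 over all miRNAs. From PD12 to PD20 their median was 0.90 against -0.09. Both medians include miR-155, listed through PD20 and CD20 only, so they are a description and carry no test. miR-150 was 21.5 ± 7.94 in PD12, 27.1 ± 15.5 in PD16 and 43.3 ± 14.2 in PD20, and the miR-142 isomiRs were 24.0 ± 5.88, 40.8 ± 24.2 and 58.3 ± 19.6, none called. miR-342 was lower in PD16 and PD20 than in PD12 (-1.86 and -1.37, joint adjusted p = 0.0380; 1.22% and 3.27% of all miRNAs called). Epithelial miRNAs were all found (10 of 10), and none of the 14 entries was called within pregnancy or within the cycle. For D16 vs D12, D20 vs D12 and D20 vs D16, 1.22%, 3.27% and 1.63% of all miRNAs were called in pregnancy. In the cycle these shares were 2.04%, 2.86% and 5.71%. The epithelial sum was 15210 to 33381 in PD20 and 9305 to 14938 in CD20, higher in every PD20 library (as for 1.63% of summed miRNAs). For PD20 vs CD20, where 6.53% of miRNAs were called, miR-203 was past the thresholds as higher (1.33, SE 0.371) and miR-205 as lower (-3.08, SE 0.528). Some listed forms of miR-203 were on the list through PD20 only, while no listed form of miR-205 passed the filter in PD20. The listing favours both differences, so they are described without a test. Erythrocyte miRNAs were all found (3 of 3, 4 entries, miR-451 the most abundant), and none was called within pregnancy, at the same shares over all miRNAs. An entry of miR-144 forms was past the thresholds, higher in PD20 than in CD20 (1.69, SE 0.386). Some forms of that entry were listed through PD20 only, which favours this difference, so it is described without a test. The part of these cells in the miR-146b result was not tested.

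Of 5 embryonic miRNAs none was listed under its name, but the sequence that the study's assay table calls miR-302, a miRNA of embryonic stem cells, was listed under gene identifiers. It had 7, 4, 11, 117, 48 and 121 reads in PD20 replicates 1 to 6, in which conceptus tissue had been dissected off. In PD12, PD16, CD12 and CD16 it had 0 reads in every library, and in CD20 2, 0, 0, 0 and 1. It was on the list through PD20 only, so these reads carry no test. Total miR-146b in the same 6 libraries was 400.4, 654, 377, 579, 502 and 121 normalized reads. The part of conceptus cells in the miR-146b result was not tested. The other 4 embryonic miRNAs were looked for by name only.

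Over the 30 libraries, which share groups and library preparation, total miR-146a and total miR-146b were correlated with Pearson r of 0.65 and Spearman rho of 0.66. Within miR-146b neighbouring tail lengths were more alike (r = 0.78 for both 3'ADD T with 3'ADD TG and 3'ADD TG with 3'ADD TGT) than the shortest and longest tail (0.49). Sequences outside miR-146 were then ranked by likeness of log2 level. The 5 most like canonical miR-146a were of miR-3613 (r = 0.70), miR-20a (0.69), miR-152 (0.69), miR-17-5p (0.68) and miR-27a (0.67). Also outside miR-146, those most like miR-146b 3'ADD TGT were of miR-221-3p (0.72 and 0.63), miR-22-3p (0.69), miR-30a-5p (0.65) and miR-126-3p (0.63).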

How the data were processed

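Reads were trimmed of adapters and filtered by the authors (each base above a phred score of 20, at least 17 nt), and the deposited values are raw counts of reads per distinct sequence, neither normalized nor aligned. The list of 873 sequences (miRBase 18) comes from the study's supplementary tables, whose expression values were not used, and counts were joined to it by exact match. Library sizes were the listed reads, TMM-scaled. For totals, the listed forms of each of 245 miRNAs were summed and scaled anew, so levels of a form and of a total stand on slightly different scales. Counts were tested with edgeR 4.0.16 (quasi-likelihood F-test; D16 and D20 jointly against D12 within a status, other contrasts singly) in R 4.3.3, and log2((extended + 0.5) / (canonical + 0.5)) with limma 3.58.1. SEs were derived from the F statistic of the single contrast. Alternatives used DESeq2 1.42.0 and other scalings, filters and left-out libraries. Python 3.11.15 with pandas 2.3.3 and Matplotlib 3.10.9 was used for joins and plots. The scripts were tested on simulated data. Named were every listed miR-146 sequence and the miRNAs of 8 lists of inflammation-linked and cell type miRNAs. So were the 5 sequences outside miR-146 most like canonical miR-146a and like miR-146b 3'ADD TGT. Members and lists were chosen with earlier results of these data known. The labels call the libraries biological replicates, so p-values measure the spread between these animals, and reads lack molecular identifiers, so read counts are not counts of molecules. The libraries were sequenced in 3 pools, which the labels do not assign to libraries, so an effect of pool could not be checked. The test of the share of each form, and the omission of the 2 libraries with few terminal C forms, were chosen after seeing the data, as was the match of miR-302 by sequence.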

Additional observations from a re-analysis of the deposited data

Results flagged for a closer look

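Values far from the rest of their group were looked for in 90 sets of values (a measure within a group of 4 to 6 libraries), and 11 were found. The rule flags about 1 in 20 by chance only for independent, normally distributed values. Totals contain the forms, and several flags fall on the same library, so the count is not set against that rate. CD12 replicate 1 was the highest of its group for canonical miR-146b (141), miR-146b 3'ADD T (312), total miR-146b (707), canonical miR-146a (159, the others 82.9 to 93.8) and total miR-146a (243). miR-146a 3'DEL T was highest in PD20 replicate 2 (54.4, the others 23.8 to 34.2). miR-146a 3'ADD A was highest in PD16 replicate 1 (13.7, the others 5.90 to 7.61) and in CD16 replicate 4 (12.98, the others 4.57 to 6.29).

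The share of reads that end in C in place of T was far from its group in PD20 replicate 3 (0.672%, the others 10.9% to 16.97%), in PD12 replicate 3 (14.8%, the others 9.47% to 10.45%) and in CD20 replicate 3 (8.55%, the others 11.01% to 11.9%). CD16 replicate 3 (0.276%) was as low as PD20 replicate 3. Outside the list of annotated sequences lay 4535 reads of miR-146a and 4786 of miR-146b forms.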

How the results depend on the processing

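Beside leaving out libraries, 16 alternative settings were applied (other tests, scalings, filters, blocks, pseudocounts and form sets), which gave 514 values for 66 results. Of these, 481 kept their direction and their side of the threshold. The cause of the changes below was not tested.

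For total miR-146b, PD16 vs PD12 was -1.05 with DESeq2 and -1.20 as a single contrast, both no longer past the threshold. PD20 vs PD12 lost its call with library sizes from all deposited reads without TMM (0.87), as a single contrast (1.03) and with runs of 12 title numbers as a block (0.97). PD12 vs CD12 (main value -0.21) turned to 0.17 without TMM and 0.11 with the title block. Its change from D12 to D16, P minus C (0.05), turned to -0.35 without TMM, -0.0568 with RLE scaling and -0.0357 without both libraries of few terminal C forms. For total miR-146a without TMM, CD20 vs CD12 passed (1.43) and PD12 vs CD12 turned to 0.15. The miR-146a ratio for CD20 vs CD12 (0.08) turned to -0.0328 with a pseudocount of 5 and -0.15 with every deposited extended form, also without those 2 libraries (-0.15). The miR-146b ratio for PD20 vs CD20 turned to -0.0092 with the title block. Canonical miR-146a for PD12 vs CD12 turned to 0.24 without TMM and 0.11 with all deposited sequences of at least 10 reads. miR-146b 3'ADD TGT for the change from D12 to D20, P minus C, turned to 0.0201 with RLE scaling and 0.0849 without those 2 libraries. Canonical miR-146a for CD20 vs CD16 was not called without those 2 libraries (1.83, adjusted p = 0.0545) nor with all deposited sequences of at least 10 reads (adjusted p = 0.337).

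Replicate numbers did not pair animals: deviations of libraries with the same number correlated with a median r of -0.042 (70 pairs, -0.616 to 0.632). With the number as a replicate block, total miR-146b was 0.45 for PD12 vs CD12 and -0.43 for its change from D12 to D16, P minus C, the miR-146b ratio for PD20 vs CD20 was -0.13, and miR-146b 3'ADD TGT for the change from D12 to D20 was 0.10. Canonical miR-146a under the block was 1.43 for CD20 vs CD12 (adjusted p = 0.0665) and 1.93 for CD20 vs CD16 (adjusted p = 0.09998), neither called.

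With each library left out in turn, total miR-146b ranged from -1.42 to -0.96 (PD16 vs PD12), 0.91 to 1.21 (PD20 vs PD12), -1.41 to 0.51 (CD16 vs CD12), -0.13 to 1.65 (CD20 vs CD12), -0.49 to 1.28 (PD12 vs CD12), -1.37 to 0.35 (change from D12 to D16, P minus C) and -0.54 to 1.18 (D12 to D20). Total miR-146a ranged from -0.15 to 0.43 (PD16 vs PD12), 0.74 to 1.12 (CD20 vs CD12), 1.32 to 1.82 (CD20 vs CD16), -0.48 to 0.0786 (PD12 vs CD12) and -0.47 to 0.0895 (D12 to D20, P minus C). The ratios ranged from -0.24 to 0.56 for miR-146a and -0.37 to 0.91 for miR-146b (CD20 vs CD12) and from -0.14 to 0.17 for miR-146b (PD20 vs CD20). miR-146b 3'ADD TGT ranged from -0.0209 to 0.59 (CD16 vs CD12) and -0.34 to 0.22 (D12 to D20, P minus C), and canonical miR-146a from -0.47 to 0.14 (PD12 vs CD12). Of 14 ranges that spanned 0, 11 had an end at the fit without CD12 replicate 1.

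Counts of called sequences rested on the test. The quasi-likelihood test called 2, 7 and 5 for PD16 vs PD12, PD20 vs PD12 and PD20 vs PD16, the likelihood ratio test 24, 46 and 21, and DESeq2 9, 55 and 15. In the same order for the cycle these were 1, 4 and 4, then 46, 50 and 56, then 17, 17 and 72. For PD20 vs CD20 they were 13, 124 and 131 (summed miRNAs 16, 36 and 42).

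DESeq2 also lost canonical miR-146a for CD20 vs CD12 (adjusted p = 0.0526) and miR-146b 3'ADD TGT for PD16 vs PD12 (adjusted p = 0.159), and called 3'ADD TGT for CD20 vs CD12 and CD20 vs CD16 (adjusted p = 0.0451 and 0.0398).

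With 1012 reads of canonical miR-146b in all, and 3 to 20 in a PD16 library, the miR-146b ratio is limited by counting error.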
